A study of Mus musculus with 18 samples.

Results

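Id3 knockout mouse CD4 T cells of 2 library sets, set 5 and set 3, were compared across all genes. The comparison used 3 libraries of knockout cells (KO) in set 5 and 3 in set 3, chosen by the genotype and set number in the labels, 6 of the 18 libraries of the series. All 12547 genes with a deposited value were included. Wild-type (WT) cells of sets 5 and 3, with 3 libraries each, served to ask whether a difference between the sets was the same in the other genotype, and 3 KO libraries of set 6 gave values beside those of set 5.

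The labels give all groups the same protocols, but a treatment label that differs by set, and whether the sets were treated alike is not stated. A batch, if the sets differ in one, cannot be told apart from the set. Naive CD4 T cells were stimulated with microbeads carrying antibodies to CD3 and CD28, and were grown with IL2, IL12 and an antibody to IL4, a mixture for Th1 polarization. The genotype is labelled only as KO or WT, no allele is named, and the meaning of the set numbers is not stated. Contrast names in the authors' deposited table carry the number 24 for set 3 and 96 for sets 5 and 6, with no unit. Because no source used here says whether the libraries of a group came from separate mice or cultures, p-values measure only the spread between these libraries, which may be technical.

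Activated CD4 T cells make ribosomes and nucleotides, divide, and take up a helper programme that is known by its cytokines. Th1 cells are known for interferon gamma, Th2 cells for Il4, Il5 and Il13, and Th17 cells for Il17a and Il17f. Id3 is one of the Id proteins, which bind the E protein transcription factors and keep them from DNA. In bulk libraries such as these, fewer cells of a type and less RNA per cell cannot be told apart.

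The deposited values were on a log2 scale. All libraries of KO set 5 had a median of 9.57 and all of KO set 3 a median of 9.18, and the median gene differed by 0.38. Sorted from low to high, 98.0 to 98.3% of the values of one library recurred in the other libraries of its group, so the depth of each library is unknown. Between KO set 5 and KO set 3 libraries 0% recurred, so the distribution of values is tied to the compared group. Spread within a group may therefore be understated and p-values too small, which was not tested. A gene is said here to have risen or fallen only where limma gave a Benjamini-Hochberg adjusted p under 0.05 over all genes both on the deposited values and after subtraction of each library's median, with the same sign. Every difference below is KO set 5 minus KO set 3 on the deposited log2 scale unless WT is named. An adjusted p given with an SE is that of the deposited values alone. For a changed setting that was run on both scales, the larger adjusted p is given. The lowest value of a library of KO set 5 or KO set 3, between 1.002 and 1.091, was shared by 176 to 248 genes. Where every library of a compared group sat at its lowest value, the gene is given by level, with no difference.

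Id3 stood at 2.02, 5.63 and 2.80 in KO set 5, against 2.15, 3.35 and 3.64 in KO set 3. These groups overlapped, and the difference of 0.44 did not pass (SE 0.89, adjusted p = 0.671). Every WT library of sets 5 and 3 was above every KO library, with values between 8.85 and 10.08. Genes that define CD4 T cells were high in both KO groups. Cd3e, a chain of the T cell receptor complex, had 13.92, 13.83 and 13.99 in KO set 5 and 12.53, 12.59 and 12.59 in KO set 3. Cd4, the coreceptor of helper cells, had 12.91, 12.77 and 12.65 in KO set 5 and 11.61, 11.94 and 11.52 in KO set 3. Both rose, with no overlap between the sets. The marker Trac had no measured row.

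Over all genes, 4466 rose in KO set 5 (35.6% of those tested) and 2932 fell (23.4%), 59.0% in either direction. On the deposited values alone 6248 were higher and 2932 lower, and after median subtraction alone 4466 were higher and 4483 lower. The lists of named gene groups below are to be read against these shares and against the median difference of 0.38 over all genes.

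**Figure D1:**
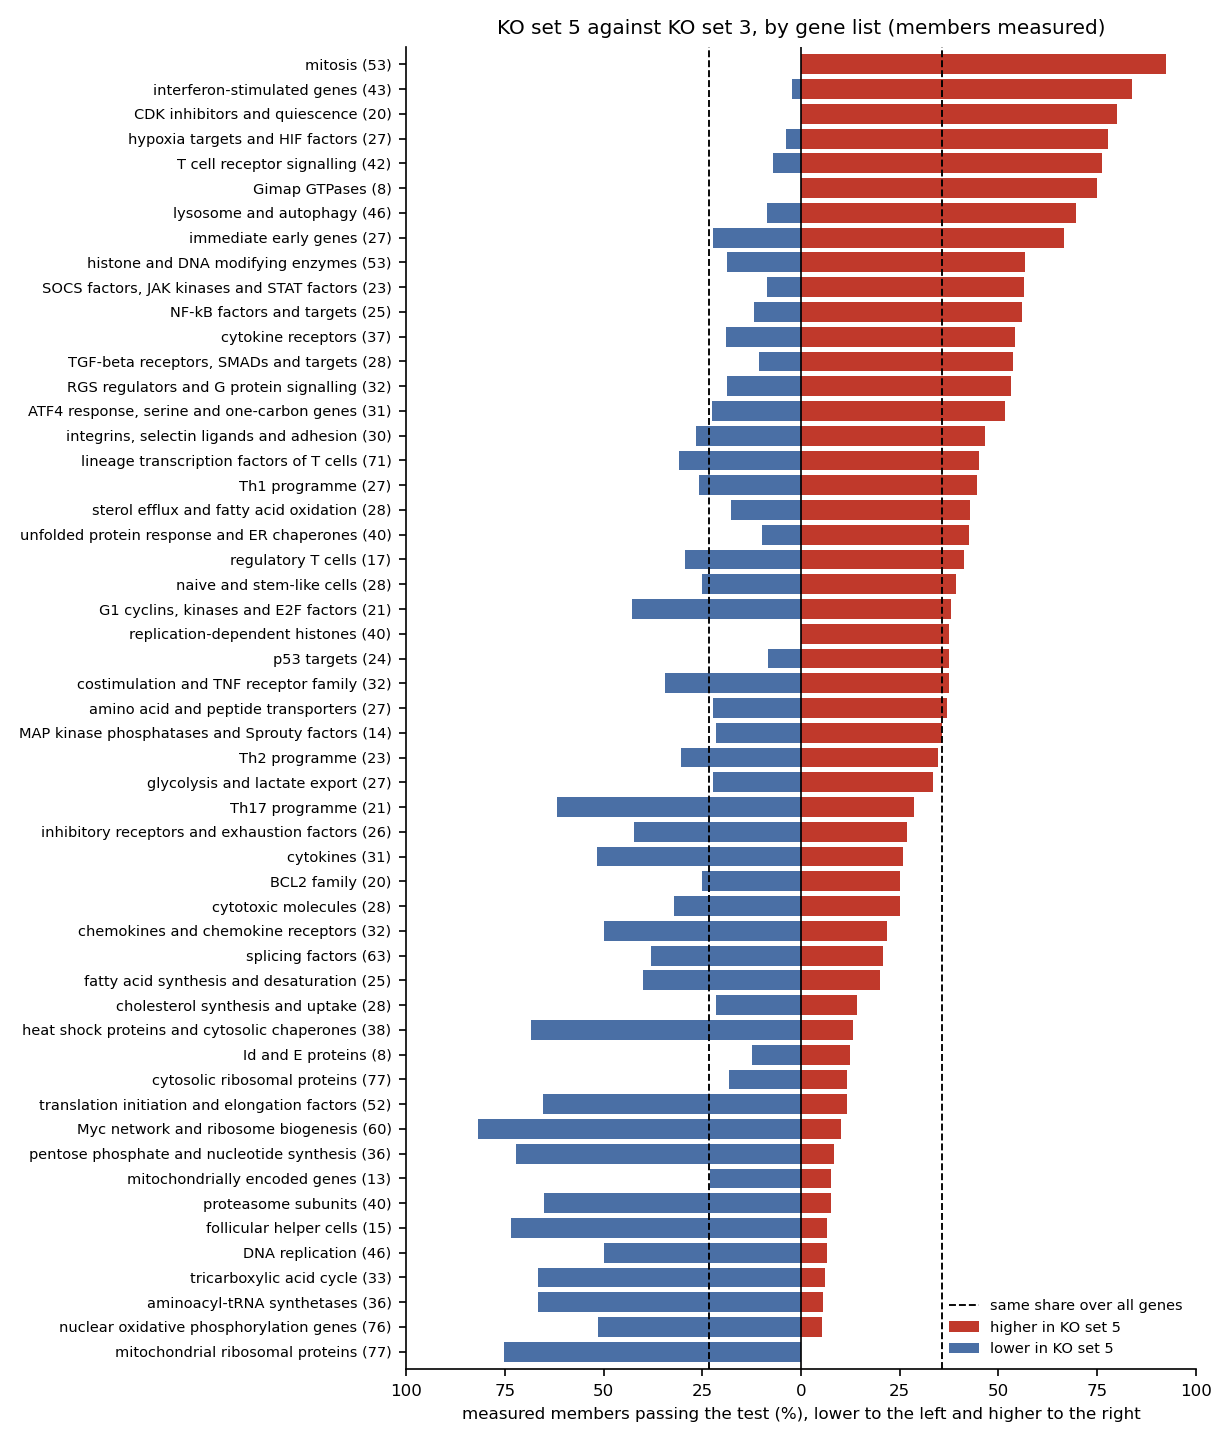
Percent of the measured members of each gene list, lists of other cell types' markers left out, that passed the test between KO set 5 and KO set 3, members higher in set 5 to the right and lower to the left, with the number measured in parentheses. Dashed lines mark the shares over all genes, 35.6% higher and 23.4% lower. Among the lists shown, mitosis genes reach farthest to the right and the Myc and ribosome biogenesis list farthest to the left.

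The largest rises were in genes of varied kind. Enah, which encodes a regulator of actin filament growth, stood at 11.68, 12.31 and 12.15 in KO set 5, against 4.04, 4.77 and 5.001 in KO set 3, a difference of 7.44 (SE 0.33, adjusted p = 3.48e-11). Hpgds, the prostaglandin D2 synthase of blood cells, had 10.61, 10.10 and 10.51 in KO set 5, against 4.24, 4.29 and 3.39 in KO set 3, a difference of 6.43 (SE 0.29, adjusted p = 3.48e-11). Cyp11a1, which makes pregnenolone from cholesterol, had 13.54, 13.27 and 13.13, against 7.26, 7.03 and 7.42, a difference of 6.07 (SE 0.48, adjusted p = 8.98e-09). In all of these genes the set 5 libraries lay far above the set 3 libraries, with no overlap. Ecm1, the gene of a secreted matrix protein, reached 17.98, 17.80 and 17.80 in KO set 5, against 11.15, 10.36 and 12.78 in KO set 3, a difference of 6.43 (SE 0.60, adjusted p = 6.67e-08). Mcf2l, the gene of a guanine nucleotide exchange factor, rose by 6.90 (SE 0.35), Drc1, of motile cilia, by 6.75 (SE 0.78), Pigz, of GPI anchor synthesis, by 6.47 (SE 0.39) and Gpnmb, a membrane glycoprotein gene, by 5.95 (SE 0.47). Sval1 stood at 9.79, 5.598 and 5.99 in KO set 5, and every KO set 3 library had it at the lowest value. Csta2, one of a cluster of near-identical stefin A genes whose values are uncertain, stood at 12.23, 9.85 and 9.80 in KO set 5 and 5.83, 1.07 and 5.57 in KO set 3.

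Globins and cytokines led the falls. Hbb-bs, a beta globin gene, had 1.02, 4.75 and 1.09 in KO set 5, against 12.77, 11.27 and 10.56 in KO set 3, a difference of -9.25 (SE 1.15, adjusted p = 1.85e-06). Il9, the gene of a cytokine that acts on mast cells, had 6.03, 1.003 and 4.30 in KO set 5, against 13.79, 12.44 and 12.39 in KO set 3, a difference of -9.09 (SE 1.09, adjusted p = 1.19e-06). Il22, which encodes a cytokine that acts on epithelia, had 4.17, 3.49 and 7.15, against 14.32, 11.71 and 13.37, a difference of -8.19 (SE 0.94, adjusted p = 7.28e-07). The sets did not overlap in any of these, but the set 5 values of Hbb-bs and Il9 include libraries at the lowest value, so the size of their differences depends on that value. Hbb-bs and Il22 also have near-identical copies, and reads may be split among them. Exosc6, a subunit gene of the RNA exosome, lay at the lowest value in each library of KO set 5 and of WT set 5. It stood at 8.96, 9.46 and 9.04 in KO set 3 and at 9.06, 9.43 and 9.25 in WT set 3. The level of Exosc6 thus followed the set in both genotypes, and the cause was not tested.

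**Figure D2:**
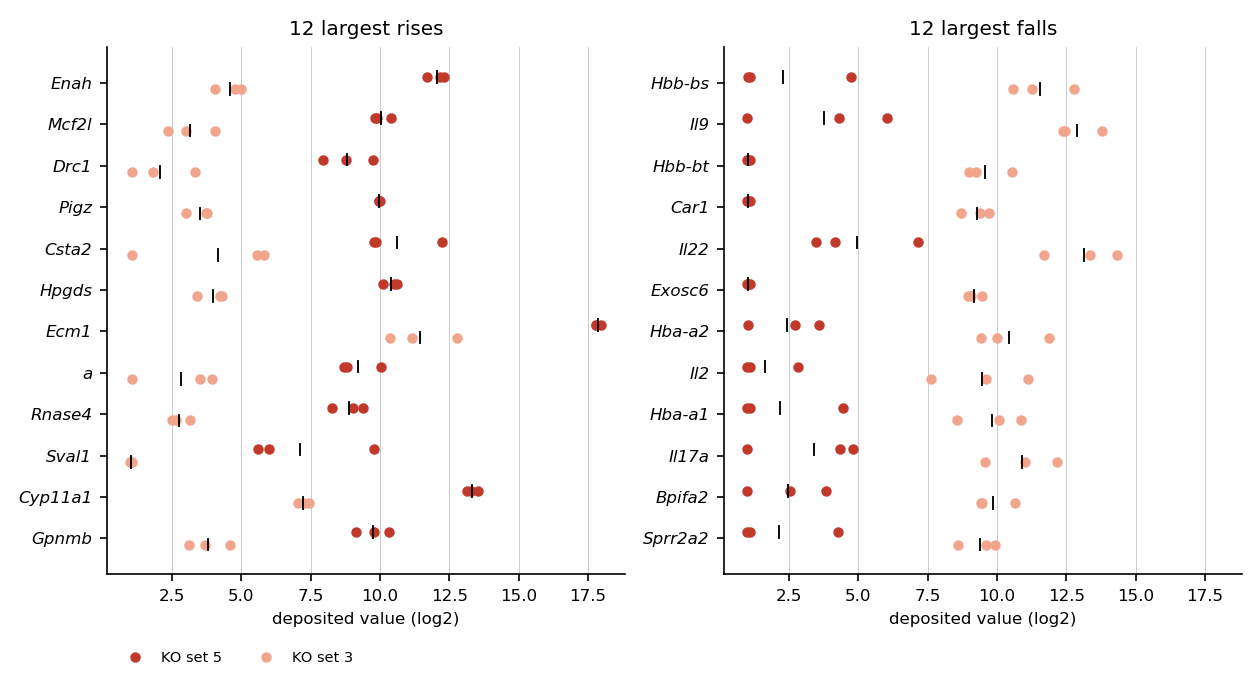
Deposited log2 value of each library (points) and group mean (black ticks) in KO set 5 and KO set 3 for the 12 genes with the largest rise (left) and the 12 with the largest fall (right) among named genes whose groups do not overlap. Enah and Cyp11a1 stand high in set 5, and Exosc6, Car1 and Hbb-bt sit at the lowest value in all set 5 libraries.

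Genes of mitosis rose nearly as a block. Of 53 measured members 49 rose and 0 fell, with a median difference of 1.54. Ccnb2, which encodes cyclin B2, a partner of the kinase that drives entry into mitosis, stood at 11.90, 12.37 and 12.08 in KO set 5, against 9.10, 7.38 and 8.85 in KO set 3, a difference of 3.67 (SE 0.29, adjusted p = 1.13e-08). Ube2c, the ubiquitin-conjugating enzyme of the anaphase-promoting complex, had 13.03, 13.44 and 13.21 in KO set 5 and 11.20, 9.95 and 10.71 in KO set 3, a difference of 2.61 (SE 0.21, adjusted p = 9.83e-09). Mki67, the gene of the proliferation antigen Ki-67, had 12.84, 13.23 and 12.88 in KO set 5 and 11.06, 9.98 and 11.04 in KO set 3, a difference of 2.29 (SE 0.20, adjusted p = 3.4e-08). For these 3 genes every set 5 library lay above every set 3 library, and the lowest was the second library of KO set 3. Foxm1, a transcription factor of mitotic genes, rose by 2.67 (SE 0.18), and Cenpa, the histone of centromeres, by 2.93 (SE 0.25). The kinase genes Plk1 and Aurka rose by 1.83 (SE 0.23) and 1.52 (SE 0.18).

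Promoters of mitotic genes often hold the letters TTTGAA, the core of a cell cycle element known as CHR, and CCAAT, the box bound by NF-Y. The 250 bases before the start of the 3 genes above are shown because these genes rose together and each holds the CHR core, here in capitals on either strand (TTTGAA or its complement TTCAAA). The sequences are from RefSeq on GRCm38.p6, 5′ to 3′ along the gene: Ccnb2 at chr9:70421555-70421804 on the minus strand, Ube2c at chr2:164769679-164769928 on the plus strand and Mki67 at chr7:135716380-135716629 on the minus strand.
Ccnb2: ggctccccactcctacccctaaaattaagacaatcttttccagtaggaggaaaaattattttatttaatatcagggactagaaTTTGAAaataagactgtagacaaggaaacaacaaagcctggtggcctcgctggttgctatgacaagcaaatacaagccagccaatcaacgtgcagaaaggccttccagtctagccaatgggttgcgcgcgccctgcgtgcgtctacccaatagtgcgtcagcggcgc
Ube2c: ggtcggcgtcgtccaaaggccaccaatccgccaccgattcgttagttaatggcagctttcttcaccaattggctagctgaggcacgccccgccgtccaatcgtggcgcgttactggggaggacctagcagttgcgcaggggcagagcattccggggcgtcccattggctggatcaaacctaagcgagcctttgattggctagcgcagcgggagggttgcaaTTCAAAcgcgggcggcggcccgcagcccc
Mki67: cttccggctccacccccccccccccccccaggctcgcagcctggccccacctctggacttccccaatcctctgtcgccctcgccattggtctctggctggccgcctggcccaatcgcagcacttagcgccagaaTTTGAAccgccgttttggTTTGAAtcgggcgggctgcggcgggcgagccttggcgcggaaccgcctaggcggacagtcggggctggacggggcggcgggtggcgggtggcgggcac
Of the 44 mitosis members with a promoter in the table, 17 held TTTGAA on either strand (38.6%), against 10.9% of 9978 measured genes and 16.3% of all 27025 promoters. CCAAT was in 34 of the 44 (77.3%), against 36.9% of measured genes and 34.5% of all promoters. Among the members that rose, 15 of 40 held TTTGAA (37.5%) and 31 of 40 held CCAAT (77.5%). These matches describe letters in a window and do not show binding.

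Of 46 DNA replication genes 23 fell and 3 rose, with a median of -0.23. After median subtraction alone 37 were lower. Pold2, a subunit of DNA polymerase delta, stood at 10.62, 10.85 and 10.61 in KO set 5 and 11.63, 11.74 and 11.71 in KO set 3, a difference of -0.999 (SE 0.07, adjusted p = 3.89e-09). Mcm2, a subunit of the replicative helicase, fell by 0.44 (SE 0.07). Only 1 replication gene rose without the second library of KO set 3, and likewise without the second library of KO set 5. Among 20 CDK inhibitors and quiescence genes 16 rose and 0 fell, with a median of 1.73. Cdkn1b, the gene of the inhibitor p27, had 11.80, 11.59 and 11.82 in KO set 5, against 9.45, 9.32 and 9.23 in KO set 3, a difference of 2.40 (SE 0.09, adjusted p = 1.06e-11). Tob1, an antiproliferative gene of resting T cells, rose by 2.46 (SE 0.07), Btg1 by 2.57 (SE 0.16) and Ccng2 by 3.97 (SE 0.25). Of 40 replication-dependent histone genes 15 rose, near the share over all genes, and 0 fell. Their RNAs mostly lack the poly(A) tail by which these libraries were selected, and 3 fell without the second library of KO set 3 and 1 without the first or the second of KO set 5.

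The machinery of growth fell. Of 60 genes of the Myc network and ribosome biogenesis 49 fell and 6 rose, with a median of -1.35. Myc, the transcription factor of growth genes, had 11.80, 12.46 and 11.66 in KO set 5, against 13.005, 13.21 and 13.47 in KO set 3, a difference of -1.26 (SE 0.20, adjusted p = 2.99e-05). Polr1b, the second largest subunit of RNA polymerase I, stood at 8.72, 9.28 and 8.44 in KO set 5, against 11.70, 11.98 and 11.74 in KO set 3, a difference of -2.99 (SE 0.20, adjusted p = 1.37e-09). Both groups of values were apart in each gene. Rrp12, Nop16 and Dkc1, which take part in making ribosomal subunits, fell by 2.75 (SE 0.13), 2.53 (SE 0.11) and 2.47 (SE 0.15). The members that rose include Mxd3, Mxd1 and Mxi1, which compete with Myc for its partner Max, by 3.03 (SE 0.20), 2.13 (SE 0.18) and 2.05 (SE 0.19). The letters CACGTG, the E-box bound by Myc and Max, were in the promoter window of 5 of 53 members (9.43%) and of 1 of 42 that fell (2.38%), against 8.32% of measured genes and 6.05% of all promoters.

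Protein synthesis and its supplies followed, with unequal parts. None of 77 mitochondrial ribosomal protein genes rose and 58 fell, with a median of -0.74, and Mrps18b fell by 2.04 (SE 0.10). Of 36 aminoacyl-tRNA synthetases 24 fell and 2 rose, and of 52 translation factors 34 fell and 6 rose. Eif5 was among those that rose, by 1.29 (SE 0.06), as was Pdcd4, an inhibitor of translation, by 2.03 (SE 0.19). The 77 cytosolic ribosomal protein genes mostly did not pass, with 9 that rose and 14 that fell. Their split turned on the scale, at 37 higher and 14 lower on the deposited values alone and 9 higher and 47 lower after median subtraction alone. Nucleotide synthesis and the pentose phosphate pathway had 26 of 36 members that fell and 3 that rose, with a median of -0.76. Gart, an enzyme of purine synthesis, fell by 2.11 (SE 0.13), Ctps, the CTP synthase, by 2.04 (SE 0.11), and Mthfd1, of one-carbon metabolism, by 2.37 (SE 0.11). Ampd1, the AMP deaminase of muscle, went the other way, at 6.11, 5.81 and 6.04 in KO set 5 and 1.65, 1.07 and 1.002 in KO set 3, a difference of 4.75 (SE 0.43, adjusted p = 4.95e-08). The set 3 values of Ampd1 include libraries at the lowest value, so the size of its difference depends on that value.

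Chaperones and the proteasome also fell for the most part. Of 38 heat shock and cytosolic chaperone genes 26 fell and 5 rose, with a median of -0.95. Hspd1, the mitochondrial chaperonin, stood at 12.67, 12.89 and 12.60 in KO set 5, against 15.51, 15.67 and 15.41 in KO set 3, a difference of -2.81 (SE 0.12, adjusted p = 2.59e-11). Of 40 proteasome subunits 26 fell and 3 rose. The 3 that rose were Psmb9 (1.06, SE 0.09), Psmb8 (0.85, SE 0.08) and Psmb10 (0.91, SE 0.13), the catalytic subunits of the immunoproteasome that interferon induces. Psmb10 did not pass against a minimum fold of 1.2 (adjusted p = 0.0553). Genes of the unfolded protein response moved less evenly, with 17 of 40 that rose and 4 that fell. After median subtraction alone 9 were lower. Only 2 fell without the first library of KO set 3 or without the third of KO set 5. Dnajb9, a chaperone of the endoplasmic reticulum, rose by 2.75 (SE 0.12), Herpud1 by 2.19 (SE 0.12) and Ddit3, the gene of the stress factor CHOP, by 2.72 (SE 0.15).

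Markers of other cells moved between the sets and are given before the cytokines, several of which those cells also make. All values here are the log2 of the summed linear levels of a list. All 7 erythroid markers fell, with sums of 6.14 to 6.97 in KO set 5, against 12.03 to 13.94 in KO set 3, and Hbb-bt and Car1 lay at the lowest value in each KO set 5 library. WT sums were 6.45 to 6.58 in set 5 and 9.24 to 9.76 in set 3. Of 10 granulocyte and mast cell markers 9 fell and Ly6g rose, with sums of 7.65 to 9.11 in KO set 5 and 9.54 to 9.94 in KO set 3. In WT cells 2 of the 10 rose and 0 fell, with sums of 7.78 to 8.23 in set 5 and 6.11 to 6.95 in set 3, and for 9 the KO difference was below the WT difference by the test. The mast cell genes Mcpt1, Mcpt4, Cma1, Tpsb2 and Fcer1a and the basophil gene Prss34 lay at the lowest value in each KO set 5 library.

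Of 8 B cell markers 5 fell and 0 rose (sums of 7.02 to 7.38 in KO set 5, 8.02 to 10.97 in KO set 3), and of 8 dendritic cell markers 7 fell and 0 rose (11.47 to 11.77 in KO set 5, 12.05 to 14.13 in KO set 3). The first library of KO set 3 was the highest for both lists. Of 11 natural killer cell markers 6 fell, among them Ncr1, at the lowest value throughout KO set 5, while Gzma rose and carried the sum (18.16 to 19.18 in KO set 5, 13.47 to 14.78 in KO set 3). The γδ and NKT list had 3 of 4 members that fell and 0 that rose (4.94 to 6.31 in KO set 5, 7.31 to 9.16 in KO set 3). Macrophage and monocyte markers went up, with 4 of 7 that rose, among them Adgre1, Cd68 and Ccr2, and Lyz2 that fell (11.57 to 12.25 in KO set 5, 8.49 to 9.41 in KO set 3). Of 5 fibroblast and endothelial markers 2 rose and 1 fell (11.24 to 11.49 in KO set 5, 8.64 to 9.08 in KO set 3), led by Pecam1. Among 4 CD8 T cell markers Zbtb7b, which is a CD4 lineage factor, and Runx3 rose and Cd8a fell (12.11 to 12.18 in KO set 5, 11.38 to 11.67 in KO set 3). Runx3 did not pass without the second library of KO set 3 (adjusted p = 0.112) or of KO set 5 (adjusted p = 0.0603), with the compared groups alone (adjusted p = 0.053), or against a minimum fold of 1.2 (adjusted p = 0.587). Most of these markers have a low mean over the 18 libraries. With genes of a mean log2 value of 6 or more over all libraries alone, no erythroid or B cell marker fell. Nor did more than 2 of any of the other lists. Hbb-bs, though high in KO set 3, misses that mean, so this filter does not show that the markers were low in KO set 3. The part of such cells in the cytokine results was not tested.

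Of 31 cytokine genes 16 fell and 8 rose. With genes of a mean log2 value of 6 or more alone 7 fell and 7 rose. That mean is over all libraries, and Il2, Il9 and Il17a, high in KO set 3, miss it. Il2, the T cell growth factor, stood at 2.83, 1.003 and 1.09 in KO set 5, against 9.61, 11.10 and 7.63 in KO set 3, a difference of -7.81 (SE 0.75, adjusted p = 9.57e-08). Il3, a growth factor of basophils and mast cells, had 3.82, 2.63 and 1.09 in KO set 5, against 10.11, 10.10 and 7.17 in KO set 3, a difference of -6.61 (SE 0.74, adjusted p = 5.28e-07). Csf2, the gene of GM-CSF, had 6.38, 7.06 and 5.32, against 10.93, 10.18 and 10.16, a difference of -4.17 (SE 0.43, adjusted p = 2.24e-07). In none of these did the sets overlap. The set 5 values of Il2 and Il3 include libraries at the lowest value, so the size of their differences depends on that value. In WT cells Il2 fell by 7.80, whereas Il3 and Csf2 did not pass there, at -1.12 and 0.74. The KO difference minus the WT difference was -5.49 for Il3 (SE 1.04, adjusted p = 0.000411) and -4.91 for Csf2 (SE 0.61, adjusted p = 1.08e-05), and it did not pass for Il2. With KO libraries at the lowest value, the test of Il2 cannot show that the falls were equal.

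The Th2 cytokines parted from each other. Il13 stood at 8.81, 8.47 and 8.86 in KO set 5, against 13.69, 11.59 and 12.52 in KO set 3, and fell by 3.89 (SE 0.37, adjusted p = 7.39e-08). The Il5 gene fell by 4.36 (SE 0.36). Il4 had 11.23, 10.54 and 10.70 in KO set 5 and 11.82, 10.34 and 10.63 in KO set 3, values that overlapped, and its difference of -0.11 did not pass (SE 0.46, adjusted p = 0.84). In WT cells Il4 rose by 2.61, and KO minus WT gave -2.72 (SE 0.65, adjusted p = 0.00247). Gata3, a factor that sets the Th2 fate, had 12.81, 12.43 and 12.50 in KO set 5 and 11.41, 11.71 and 11.71 in KO set 3, a rise of 0.97 (SE 0.11, adjusted p = 1.04e-06). It fell in WT cells by 0.82, and these differences were apart by 1.79 (SE 0.16, adjusted p = 1.06e-06). The Th2 list as a whole, with 8 of 23 that rose and 7 that fell, was near the shares over all genes.

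Th17 genes mostly fell, 13 of 21 with 6 that rose and a median of -1.51, and 7 fell among genes of a mean log2 value of 6 or more. Il17a stood at 4.34, 1.003 and 4.82 in KO set 5, against 12.18, 9.55 and 11.02 in KO set 3, a difference of -7.53 (SE 0.86, adjusted p = 7.3e-07). Il17f had 6.78, 6.94 and 6.85 in KO set 5, against 11.61, 9.45 and 10.25 in KO set 3, a difference of -3.58 (SE 0.56, adjusted p = 2.42e-05). Both were clearly apart. The set 5 values of Il17a include a library at the lowest value, so the size of its difference depends on that value. Il23r, the receptor gene of a cytokine that sustains Th17 cells, fell by 4.13 (SE 0.64) and the chemokine receptor gene Ccr6 by 5.58 (SE 0.38). Follicular helper genes fell too, 11 of 15 with 1 that rose and a median of -1.46, and 6 fell among genes of a mean log2 value of 6 or more. Cxcr5, the receptor that leads T cells to B cell follicles, fell by 4.71 (SE 0.61), Btla by 5.07 (SE 0.28), Cd200 by 5.28 (SE 0.37) and Bcl6, the factor of that lineage, by 1.36 (SE 0.38). Without the first library of KO set 3, or without the second of KO set 5, 7 follicular helper genes fell. B cell and dendritic cell markers, given above, fell in the same libraries, and their part in these falls was not tested.

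Some cytokine genes rose. Il10, the gene of a cytokine that dampens responses, had 13.30, 13.01 and 13.36 in KO set 5, against 10.93, 8.56 and 10.71 in KO set 3, a difference of 3.16 (SE 0.47, adjusted p = 1.39e-05). Il24, of the same cytokine family, had 14.24, 13.99 and 14.15 in KO set 5, against 11.09, 9.25 and 11.13 in KO set 3, a difference of 3.64 (SE 0.36, adjusted p = 1.21e-07). The second library of KO set 3 was the lowest for both. Tnf rose by 1.204 (SE 0.14). Il21, a cytokine of follicular helper and Th17 cells, had 12.61, 11.11 and 11.47 in KO set 5 and 12.90, 12.55 and 13.16 in KO set 3. The first KO set 5 library lay within the range of KO set 3, and the difference of -1.14 (SE 0.44, adjusted p = 0.0295) did not pass without the first or the third library of KO set 3 (adjusted p = 0.0625 and 0.0904), without the second or the third of KO set 5 (adjusted p = 0.135 and 0.0882), or against a minimum fold of 1.2 (adjusted p = 0.0597). In WT cells Il21 fell by 5.08, and the KO difference was higher than that by 3.94 (SE 0.63, adjusted p = 9.43e-05).

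**Figure D3:**
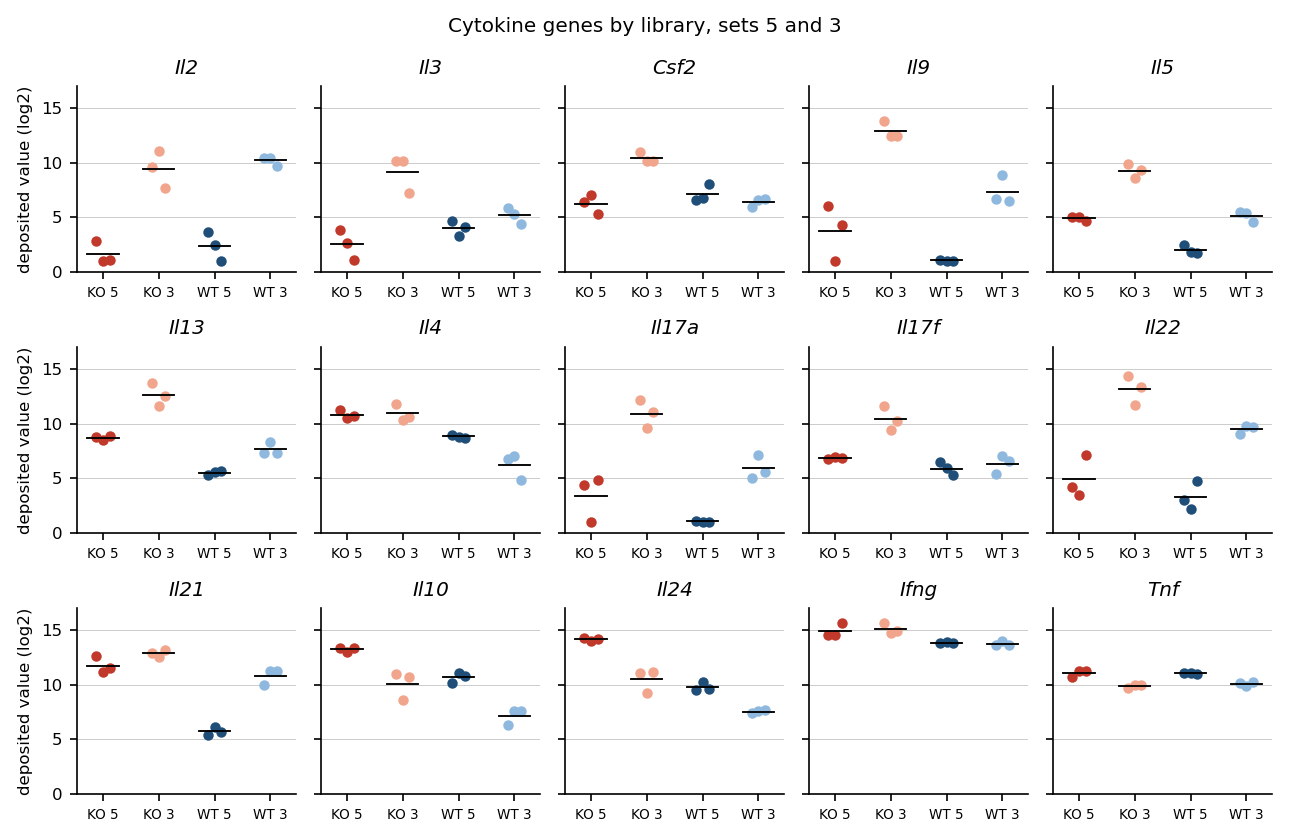
Deposited log2 value of 15 cytokine genes in each library (points) with group means (bars) for KO set 5, KO set 3, WT set 5 and WT set 3. Il2, Il9, Il17a and Il22 are low in set 5 of both genotypes, Il10 and Il24 are highest in KO set 5, and Ifng overlaps between the KO sets.

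The Th1 list was mixed, with 12 of 27 that rose and 7 that fell, against 35.6% and 23.4% over all genes. Ifng, the interferon gamma gene, stood at 14.54, 14.53 and 15.59 in KO set 5 and 15.62, 14.76 and 14.94 in KO set 3. The sets overlapped, and the difference of -0.22 did not pass (SE 0.32, adjusted p = 0.544). Tbx21, which encodes the Th1 factor T-bet, had 9.16, 9.82 and 9.54 in KO set 5, against 10.59, 10.84 and 10.70 in KO set 3, a difference of -1.2003 (SE 0.15, adjusted p = 2.48e-06). Cxcr3, a chemokine receptor of Th1 cells, rose by 1.07 (SE 0.20) in KO and by 2.64 in WT cells, apart by -1.57 (SE 0.29, adjusted p = 0.0003).

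Among 28 cytotoxic molecules 9 fell and 7 rose, against 23.4% and 35.6% over all genes. Gzma, the gene of granzyme A, stood at 19.18, 18.15 and 18.91 in KO set 5, against 14.59, 13.10 and 14.65 in KO set 3, a difference of 4.63 (SE 0.55, adjusted p = 1.16e-06). Its WT difference of 0.36 did not pass, and the KO difference was higher by 4.27 (SE 0.78, adjusted p = 0.000303). Gzmb, the gene of granzyme B, rose by 1.904 (SE 0.26) in KO and by 3.70 in WT cells, apart by -1.80 (SE 0.37, adjusted p = 0.000816). Prf1, the gene of perforin, had 9.22, 8.44 and 9.22 in KO set 5 and 9.23, 8.93 and 9.36 in KO set 3, which overlapped and did not pass. Gzma is also a natural killer cell gene, and 6 other markers on that list fell.

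Chemokines and their receptors had 16 of 32 members that fell and 7 that rose, with a median of -1.14, and 6 fell among genes of a mean log2 value of 6 or more. The chemokine genes Xcl1 and Ccl22, which attract dendritic cells and regulatory T cells, fell by 4.61 (SE 0.80) and 6.87 (SE 0.95), and Ccl4 by 1.66 (SE 0.40). Ccl20, the ligand of Ccr6, lay at the lowest value in each KO set 5 library and had 8.48, 7.64 and 5.84 in KO set 3. Ccr7, which guides cells into lymph nodes, fell by 1.63 (SE 0.15), whereas Ccr2, a receptor for entry into inflamed tissue, rose by 3.10 (SE 0.36). S1pr4, a receptor for sphingosine 1-phosphate, rose by 2.48 (SE 0.14), and the integrin gene Itgb3 by 4.28 (SE 0.20).

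Of 37 cytokine receptor genes 20 rose and 7 fell. Il3ra, the alpha chain of the Il3 receptor, stood at 11.60, 11.40 and 11.44 in KO set 5, against 7.57, 6.86 and 7.16 in KO set 3, a difference of 4.28 (SE 0.19, adjusted p = 3e-11). Csf2rb and Csf2rb2, the beta chains with which it signals, fell by 3.71 (SE 0.75) and 5.62 (SE 0.39), and these are close copies of each other whose reads may be split. Il7r, the receptor of a survival factor, rose by 2.18 (SE 0.23). Il2ra, the high-affinity Il2 receptor chain, had 15.06, 15.01 and 15.002 in KO set 5 and 14.67, 14.34 and 14.91 in KO set 3, a difference of 0.38 that equals the median over all genes and did not pass after centring.

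Signalling genes of T cells rose more often than not. Of 42 T cell receptor signalling genes 32 rose and 3 fell, with a median of 1.14. Rasgrp1, which links the receptor to Ras, stood at 13.64, 13.69 and 13.95 in KO set 5, against 10.52, 10.64 and 10.84 in KO set 3, a difference of 3.09 (SE 0.15, adjusted p = 4.91e-11). Prkcq, the protein kinase C theta gene, rose by 2.24 (SE 0.11), Cd3g by 2.10 (SE 0.07) and Cd3d by 1.999 (SE 0.07). Of 27 immediate early genes 18 rose and 6 fell. Jun had 14.27, 13.94 and 14.55 in KO set 5, against 10.27, 10.24 and 10.42 in KO set 3, a difference of 3.94 (SE 0.18, adjusted p = 4.45e-11). Fos rose by 3.24 (SE 0.16) and Zfp36, whose product destabilizes cytokine mRNAs, by 3.94 (SE 0.17). Nr4a3 and Egr2, which T cell receptor signals induce, fell by 3.70 (SE 0.38) and 2.56 (SE 0.29).

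NF-kB factors and targets had 14 of 25 members that rose and 3 that fell, and 9 were lower after median subtraction alone. Nfkbia and Tnfaip3, feedback inhibitors of the pathway, rose by 2.19 (SE 0.13) and 2.68 (SE 0.17), and Cd83 fell by 4.20 (SE 0.57). Among 23 SOCS, JAK and STAT genes 13 rose and 2 fell. The kinase gene Pim1 rose by 2.26 (SE 0.11), and Stat5a, a factor downstream of Il2, fell by 1.83 (SE 0.12).

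Of 43 interferon-stimulated genes 36 rose, with a median of 1.85, and 1 fell, Gbp5, by 1.61 (SE 0.12). Without the first library of KO set 3, 2 fell. Isg20, an exonuclease gene, stood at 12.37, 12.68 and 12.47 in KO set 5, against 8.49, 7.91 and 8.404 in KO set 3, a difference of 4.24 (SE 0.26, adjusted p = 6.62e-10). Rtp4 had 11.56, 11.47 and 12.47 in KO set 5, against 7.84, 7.60 and 8.01 in KO set 3, a difference of 4.02 (SE 0.30, adjusted p = 4.4e-09). The sets did not overlap in either. Irf7 and Stat2, transcription factors of the interferon response, rose by 2.99 (SE 0.35) and 2.82 (SE 0.17). Irf1 had 15.502, 15.46 and 15.90 in KO set 5, against 13.01, 13.05 and 13.13 in KO set 3, a difference of 2.55 (SE 0.14, adjusted p = 1.89e-10). In WT cells Irf1 did not pass, at 0.19, and the KO difference was higher by 2.36 (SE 0.20, adjusted p = 7.05e-07).

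Of 71 transcription factors of T cell lineages 32 rose and 22 fell. Id2, the relative of Id3 that also binds E proteins, stood at 15.51, 15.43 and 15.65 in KO set 5, against 13.74, 12.95 and 13.35 in KO set 3, a difference of 2.18 (SE 0.16, adjusted p = 3.16e-09). It rose by 2.20 in WT cells, with no detectable difference between the genotypes. The E protein genes Tcf3, Tcf4 and Tcf12 did not pass on both scales with one sign, at 0.18, 0.93 and 0.34. Tcf3 was higher on the deposited values (adjusted p = 0.0329) and lower after centring, at -0.20 (adjusted p = 0.0174). Tcf4 did pass without the first library of KO set 3, at 1.35, or without the second of KO set 5, at 1.23. It also passed with the replicate number added to the limma model as a block, at 0.93 (adjusted p = 0.0356). Tal1, a partner of E proteins in blood stem cells and erythroid cells, fell by 3.98 (SE 0.46). In the Id and E protein list of 8, 1 rose and 1 fell, and 2 rose without the first library of KO set 3 or the second of KO set 5. Epas1, the gene of HIF-2 alpha, had 11.83, 11.29 and 11.71 in KO set 5, against 8.72, 6.27 and 7.70 in KO set 3, a difference of 4.04 (SE 0.45, adjusted p = 5.81e-07). Maf, which drives Il10, rose by 3.05 (SE 0.39). Irf4, induced by T cell receptor signals, fell by 1.51 (SE 0.10), and Foxp3, the factor of regulatory T cells, by 1.38 (SE 0.32).

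Naive and stem-like genes had 11 of 28 that rose and 7 that fell, near the shares over all genes. Bcl2, a survival gene, rose by 2.37 (SE 0.21) and Txnip, which restrains glucose uptake, by 2.20 (SE 0.21). Tcf7, the factor of naive and memory cells, fell by 0.61 (SE 0.17), or by 0.33 without the second library of KO set 3. Of 26 inhibitory receptors and exhaustion factors 11 fell and 7 rose, and 16 were lower after median subtraction alone. Lag3 fell by 2.41 (SE 0.31) and Vsir, the gene of VISTA, rose by 3.13 (SE 0.18), while Pdcd1, the gene of PD-1, did not pass on the deposited scale and was lower after centring, at -0.86 (adjusted p = 0.00351). Of the Gimap GTPases, linked to lymphocyte survival, 6 of 8 rose, with Gimap6 up by 1.58 (SE 0.18). None fell, and 1 did without the second library of KO set 3.

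Metabolic genes moved in several directions. Of 27 hypoxia targets and HIF factors 21 rose, with a median of 1.47. Vegfa, the vascular growth factor, stood at 9.37, 9.84 and 9.43 in KO set 5, against 7.29, 7.41 and 7.59 in KO set 3, a difference of 2.12 (SE 0.12, adjusted p = 3e-10). Slc2a1, the glucose transporter, rose by 1.76 (SE 0.11), and Tfrc, the transferrin receptor, was the 1 member that fell, by 1.40 (SE 0.15). Glycolysis itself had 9 of 27 that rose and 6 that fell, near the shares over all genes. Of 33 enzymes of the tricarboxylic acid cycle 22 fell and 2 rose, and of 76 nuclear genes of oxidative phosphorylation 39 fell and 4 rose. Cyc1, of respiratory complex III, fell by 1.37 (SE 0.09). Of the 13 mitochondrially encoded genes 1 rose and 3 fell, and 9 were lower after median subtraction alone.

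Genes of cholesterol synthesis mostly did not pass, with 4 of 28 that rose and 6 that fell, and 17 were lower after median subtraction alone. Idi1, an isomerase of the pathway, stood at 11.32, 11.83 and 11.49 in KO set 5, against 13.18, 12.91 and 13.07 in KO set 3, a difference of -1.51 (SE 0.12, adjusted p = 6.82e-09). Hmgcs1, at an early step of the pathway, fell by 0.70 (SE 0.16). Without the second library of KO set 5, 12 members fell. Fatty acid synthesis had 10 of 25 members that fell and 5 that rose. Acaca, the gene of acetyl-CoA carboxylase, fell by 1.62 (SE 0.14). Of 46 lysosome and autophagy genes 32 rose and 4 fell, with a median of 1.25. Hexa, a lysosomal hydrolase, rose by 2.29 (SE 0.11), Npc1, which exports cholesterol from lysosomes, by 2.41 (SE 0.12), and Map1lc3b and Gabarap, of autophagosomes, by 2.06 (SE 0.08) and 2.26 (SE 0.11).

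Of 53 chromatin enzymes 30 rose and 10 fell. The histone methyltransferase gene Setd2 had 11.81, 11.78 and 12.002 in KO set 5, against 9.95, 10.09 and 10.03 in KO set 3, a difference of 1.84 (SE 0.10, adjusted p = 1.2e-10). The demethylase gene Kdm3a rose by 1.89 (SE 0.10), Brd2, a reader of acetylated histones, by 2.01 (SE 0.10), and the arginine methyltransferase gene Prmt1 fell by 1.92 (SE 0.12). Of 28 TGF-beta receptors, SMADs and targets 15 rose and 3 fell, with Tgfbr2, the type II receptor, up by 2.19 (SE 0.11). Only 1 fell without the first or the third library of KO set 3, or without the second or the third of KO set 5.

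The same sets were compared in WT cells, and the KO difference was tested against the WT difference in the same model. Set 5 minus set 3 in KO cells differed from that in WT cells for 3199 genes (25.5%), more positive in KO for 2343 (18.7%) and more negative for 856 (6.82%). On the deposited values alone these counts were 5420 and 856, and after median subtraction alone 2343 and 2316. The median gene was 0.42 more positive in KO on the deposited scale. Across all genes the KO and WT differences had a Pearson r of 0.745, a description over genes that share a model and are not independent replicates. In WT cells 29.3% of genes rose and 36.8% fell, 66.1% in either direction. Of the genes that rose in KO, 2858 also rose in WT, 278 fell in WT and 1330 did not pass there. Of those that fell in KO, 2446 also fell in WT, 41 rose in WT and 445 did not pass there.

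**Figure D4:**
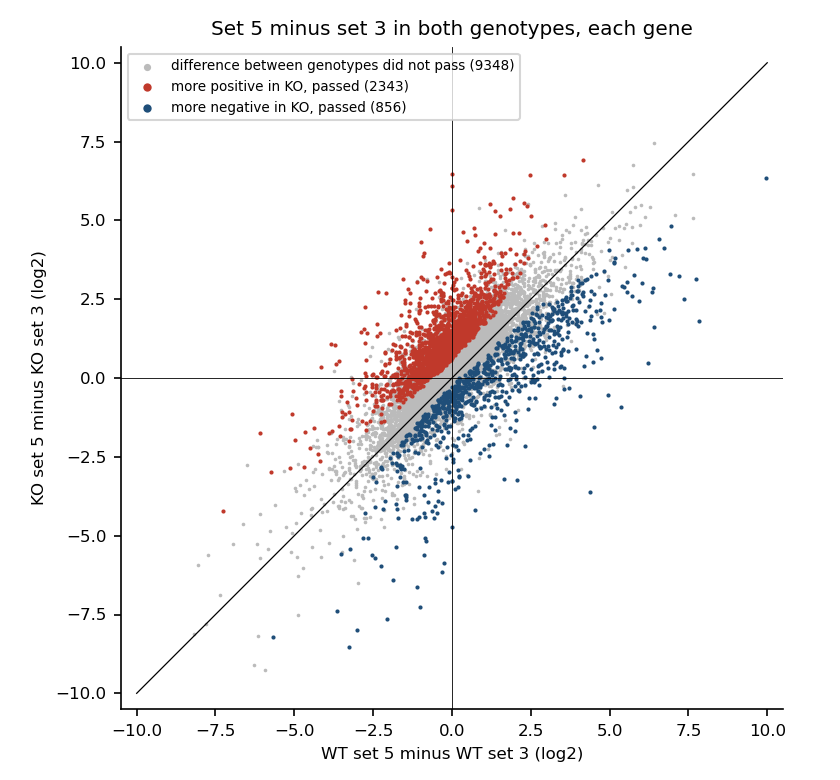
Difference of set 5 minus set 3 on the deposited log2 scale for each of 12547 genes, KO on the vertical and WT on the horizontal axis, with the line of equal differences. Coloured points passed the test of KO against WT, 2343 more positive in KO (red) and 856 more negative (blue), and 2858 genes rose and 2446 fell in both genotypes.

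Mitosis genes rose in both genotypes and less in KO cells. In WT cells 52 of 53 rose, with a median of 2.34, and for 38 the KO difference was lower than the WT difference while for 0 it was higher. Ccnb2 rose by 3.67 in KO and 5.14 in WT cells, apart by -1.47 (SE 0.42, adjusted p = 0.00798). Every KO set 3 library, at 9.10, 7.38 and 8.85, lay above the WT set 3 libraries, at 6.87, 7.35 and 7.23. Of 60 Myc network and ribosome biogenesis genes 49 fell in KO and 54 in WT cells, and 9 differed between the genotypes. Of 77 cytosolic ribosomal protein genes 13 had a KO difference above the WT difference, near the share over all genes. Of 28 cholesterol synthesis genes 4 rose in KO and 19 in WT cells, and 18 had a lower KO difference. Hmgcs1 fell by 0.70 in KO and rose by 0.61 in WT cells, apart by -1.31 (SE 0.23, adjusted p = 0.000207). Fatty acid synthesis genes had a lower KO difference in 12 of 25 cases and a higher one in 0.

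Signalling and regulatory genes differed in the other direction. Of 25 NF-kB genes 16 had a higher KO than WT difference and 0 a lower one, against 18.7% higher over all genes. T cell receptor signalling genes had 18 of 42 higher and 1 lower, chromatin enzymes 24 of 53 higher and 1 lower, interferon-stimulated genes 13 of 43 higher and 1 lower, and lineage factors 26 of 71 higher and 6 lower. Rgs1, which shortens signals of G protein coupled receptors, had 16.02, 15.19 and 16.06 in KO set 5 and 13.62, 12.99 and 13.79 in KO set 3, against 11.65, 11.97 and 11.67 in WT set 5 and 12.50, 12.60 and 13.37 in WT set 3. It rose in KO by 2.29 and fell in WT by 1.06, apart by 3.35 (SE 0.39, adjusted p = 6.88e-06). Dusp10, a phosphatase of stress kinases, rose by 2.69 in KO and fell by 0.55 in WT cells, apart by 3.23 (SE 0.25, adjusted p = 6.03e-07). Cd274, the gene of PD-L1, rose by 1.05 in KO and fell by 1.82 in WT cells, apart by 2.86 (SE 0.26, adjusted p = 1.11e-06). In KO set 6, Rgs1, Dusp10 and Cd274 averaged 16.03, 11.68 and 12.36. Between KO set 6 and KO set 5 Dusp10 fell by 0.70, and Rgs1 and Cd274 did not pass.

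**Figure D5:**
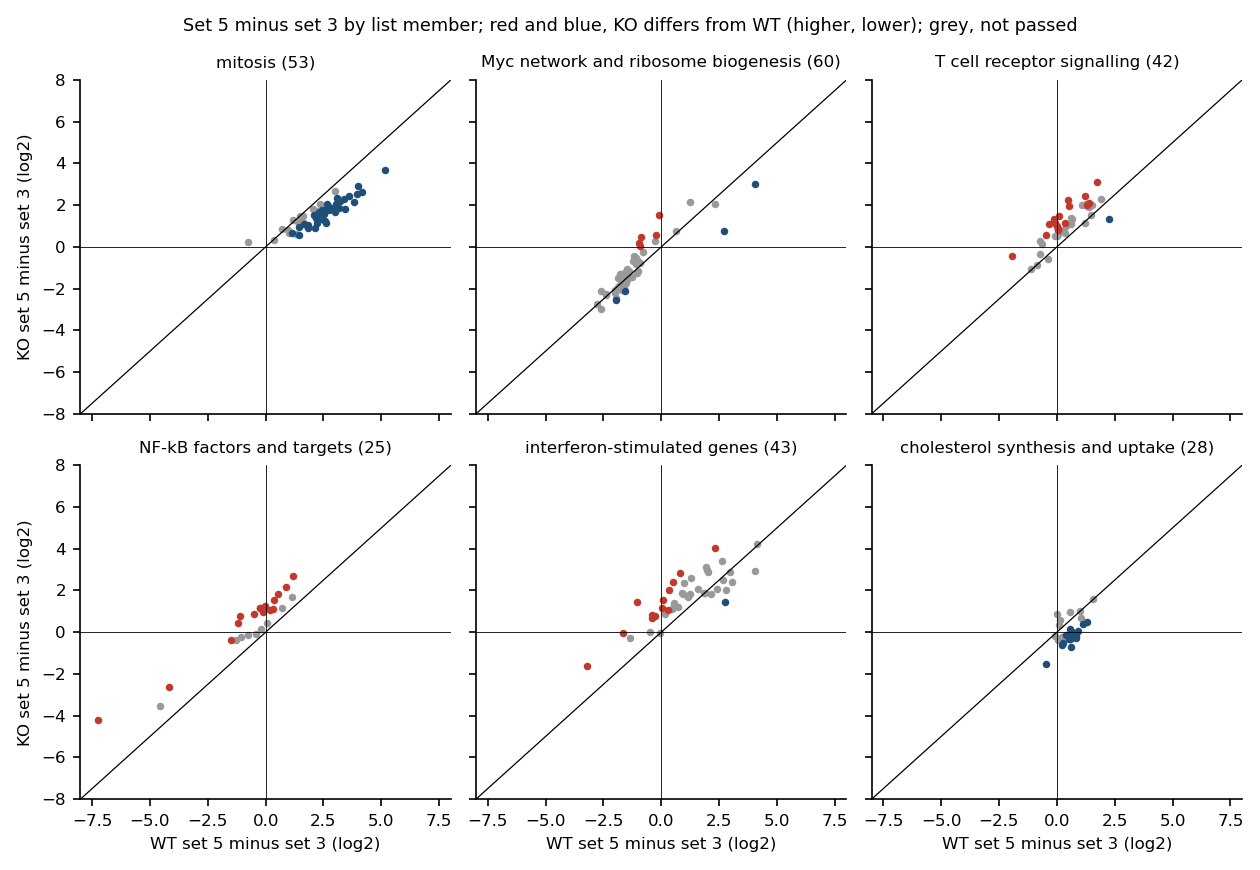
Difference of set 5 minus set 3 on the deposited log2 scale for the members of 6 gene lists, KO on the vertical and WT on the horizontal axis, with the line of equal differences. Red members had a higher and blue members a lower KO than WT difference by the test, and grey members did not pass. Most mitosis and cholesterol members lie below the line. Red members lie above it and blue members below it by definition.

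Among single genes, Ubd and Tmie moved in opposite directions in the 2 genotypes, and Pitx1, St3gal6 and Tnfsf4 moved mainly in a single genotype. Ubd, the gene of a ubiquitin-like protein, stood at 2.50, 5.52 and 3.77 in KO set 5 and 8.38, 6.95 and 7.34 in KO set 3, against 9.43, 8.51 and 9.04 in WT set 5 and 4.01, 4.71 and 5.16 in WT set 3. It fell by 3.63 in KO and rose by 4.37 in WT cells, with no overlap between the sets in either genotype. Pitx1, a homeobox gene, stood at 1.33, 2.08 and 1.09 in KO set 5 and at the lowest value throughout KO set 3, against 7.83, 7.24 and 6.78 in WT set 5 and the lowest value throughout WT set 3. Tmie, a gene of hair cell mechanotransduction, rose by 2.72 in KO and fell by 2.33 in WT cells. St3gal6, a sialyltransferase gene, had 7.35, 7.63 and 7.40 in KO set 5 and 11.004, 9.79 and 10.37 in KO set 3, against 8.58, 8.22 and 9.16 in WT set 5 and 8.67, 8.55 and 8.16 in WT set 3. Its fall was in KO cells, apart from WT by -3.12 (SE 0.42, adjusted p = 2.12e-05). Tnfsf4, the gene of OX40 ligand, fell by 3.89 (SE 0.50) in KO and did not pass in WT cells, apart by -3.46 (SE 0.71, adjusted p = 0.000782).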

How the data were processed

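RNA was extracted with RNeasy columns, selected by poly(A) and made into strand-specific NEBNext libraries, per the labels' protocols. GRCm39, Salmon 1.9.0, edgeR and limma are named in the submitters' processing notes without a role, and the filter and normalization are not given in the sources used here. The authors deposited log2 values for 12547 genes in 18 libraries, used here as deposited. They also deposited a table of 6 comparisons with log2 differences, p-values and a test score. It holds no comparison of KO set 5 with KO set 3. For KO set 6 against KO set 5 the log2 differences of that table equal those of the group means within 8.3e-14, and 76 genes have an adjusted p-value under 0.05. The score in the authors' deposited table is 0 for 7560 genes of that comparison. Those genes have log2 differences of up to 0.263 in size. The authors' test may therefore differ from the one used here, and their 76 genes are not set against counts of this report.

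All tests used limma 3.58.1 in R 4.3.3 with 6 group means over the 18 libraries, 12 residual degrees of freedom, a variance trend and Benjamini-Hochberg adjustment over all genes. The model was checked on simulated data with independent normal noise and no general shift between groups. That check does not cover the distributions shared within groups or the differing medians of these libraries. A call needed an adjusted p-value under 0.05 on the deposited and on the median-centred values with one sign. KO was compared with WT by the difference of the differences. Named genes are Id3, the 12 largest rises and falls and the 6 largest differences from WT in each direction (called, no overlap, a group mean of at least 6), and up to 4 members of each list and direction with the smallest adjusted p. Other list members are named as known markers, chosen with their values known. The members and lists were chosen with earlier results of these data known. Gene IDs matched the name table for 12528 of 12547 (99.8%). Alternatives changed the scale, threshold, variance model, low-value filter, pseudocount (1 added on the linear scale), block, samples and each library in turn. Promoters are from RefSeq on GRCm38.p6, and coordinates are given on that build alone.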

Additional observations from a re-analysis of the deposited data

Results flagged for a closer look

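Of the 24 genes with the largest rise or fall between the KO sets, 12 also differed between KO and WT cells in set 5 minus set 3. The test was the limma test of the difference between these differences, which 25.5% of all genes passed. The KO difference by which the 24 were chosen is part of the tested difference. That choice favours passing, so these shares cannot be compared. A further 8 genes were chosen as the largest differences from WT, so that their passing is no result. In 11 of these 20 genes a group lay at its lowest value in every library, and the other 9 are given here as the KO minus WT value of set 5 minus set 3. A larger rise in KO than in WT cells was seen for Mcf2l (2.74, SE 0.49, adjusted p = 0.000273), Hpgds (2.87, SE 0.41, adjusted p = 3.24e-05) and Ecm1 (3.95, SE 0.85, adjusted p = 0.00113). Among genes chosen by this difference, Gask1a (5.45, SE 0.82, adjusted p = 5.79e-05) and Gng4 (5.28, SE 1.35, adjusted p = 0.00392) rose in KO cells and did not pass in WT cells.

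The alpha globin genes Hba-a2 (-4.997, SE 1.67, adjusted p = 0.0202) and Hba-a1 (-5.59, SE 1.66, adjusted p = 0.0106) fell more in KO cells. They are near-identical copies with single libraries at the lowest value, so each value is uncertain. Tmie (5.05, SE 0.80, adjusted p = 9.17e-05) and Ubd (-7.996, SE 0.96, adjusted p = 8.08e-06) moved in opposite directions in the genotypes, and both were chosen by this difference. The cause of these differences was not tested.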

How the results depend on the processing

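Over all genes 4466 rose and 2932 fell between KO set 5 and KO set 3, and 2343 had a more positive and 856 a more negative difference in KO than in WT cells. A log2 difference of 1 or more as well left 2211, 1376, 783 and 490. A minimum fold of 1.2 left 1133 more positive and 493 more negative differences against WT. On the deposited values alone 5420 differences against WT were more positive. After median subtraction alone 4483 genes fell and 2316 differences against WT were more negative, and after quantile normalization 4467 and 2313. Leaving out each library in turn gave 4191 to 4302 that rose and 2729 to 2852 that fell, with 2000 to 2441 more positive and 676 to 1007 more negative against WT. The compared groups alone gave 4075 and 2698.

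Replicate numbers recur in every group. Deviations of same-numbered KO libraries correlated across genes at 0.154, 0.095 and 0.025, and the third library of KO set 5 correlated best with the second of KO set 3 (0.061). Same-numbered WT libraries correlated at 0.074, 0.069 and 0.074, and differently numbered ones at -0.030 to -0.049. Since not every pair was above 0.1, the numbers were not taken to pair the samples, and whether they do is not stated in the labels. With the replicate block 4566 genes rose and 3043 fell, and against WT 2637 were more positive and 1014 more negative. Among named results the block changed 1 call, Tcf4, which passed at 0.93 (adjusted p = 0.0356).

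For 446 named genes and 31 tests against WT, 8456 of 8693 values kept their direction and side of the threshold, 205 no longer passed, 9 passed anew with the same sign, and 23 changed sign, in 9 results of which 0 had passed. A log2 difference of 1 or more accounts for 113 of the 205 and a minimum fold of 1.2 for 31. Either scale alone, and the filter for a log2 value of 2 or more, could not remove a call. The 8456 therefore include values whose outcome was fixed in advance. With each library left out in turn, the KO difference ranged from -0.64 to 1.17 for Id3, -0.57 to 0.038 for Ifng, -0.40 to 0.34 for Il4 and -0.34 to 0.045 for Prf1, and the KO minus WT difference from -0.21 to 0.18 for Id2 and -0.91 to 0.82 for Il2, which was 0.13 with 1 added on the linear scale. After median subtraction alone Tcf12 was -0.045 and Tcf3 -0.20, and after quantile normalization Tcf12 was -0.051, Tcf3 -0.19 and Il2ra -0.045. The cause was not tested. A filter for a log2 value of 2 or more in 3 libraries removed no gene, and a mean of 6 or more kept 10056. The depth of the libraries is unknown, so precision at low values could not be set by counting error.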
